A study of Mus musculus with 4 samples.

Results

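The genes described here are the transcription factor gene Nfe2l2, whose product is NRF2, its inhibitor Keap1, and the antioxidant and detoxification genes Nqo1, Hmox1, Gclc, Gclm, Txnrd1, Srxn1, Slc7a11 and Gpx2. They were taken by symbol, and all 10 were found among the 23203 gene symbols that stand on 1 line of each deposited table. The material was whole skin of adult C57BL/6 mice in 4 groups of 1 library each. The KO-labelled HDM group held Egr1 knockout mice given the detergent SDS and then a cream with house dust mite (HDM) extract, and the WT HDM group held wild-type mice given the same. The KO-labelled naive group and the WT naive group carry the treatment label SDS without HDM. The cream (100 mg) went onto shaved ear and neck skin, 2 times per week for 3 weeks, after SDS had disrupted the barrier. The sources used here describe neither the Egr1 allele nor the sex and number of mice behind a library. Total RNA (500 ng) was made into 3′ tag libraries, which count reads near the end of polyadenylated transcripts.

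NRF2 is a basic leucine zipper factor that pairs with small MAF proteins at antioxidant response elements. In unstressed cells KEAP1 binds NRF2 and hands it to a CUL3 ubiquitin ligase for degradation, and oxidants or electrophiles that modify KEAP1 cysteines let NRF2 build up. Its activity is therefore set largely at the protein level, and levels of Nfe2l2 or Keap1 RNA do not measure it. Known targets make and use glutathione, keep thioredoxin and peroxiredoxins reduced, and remove quinones and free haem, and in epidermis NRF2 takes part in defence against ultraviolet light and chemicals.

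The recovered depth was 10130400 reads in KO-labelled HDM skin, 9444767 in WT HDM, 9950709 in KO-labelled naive and 9611185 in WT naive. The library of KO-labelled naive skin stood apart: 336 genes had 0 reads there and 50 or more in each other library, against 4 such genes in KO-labelled HDM, 0 in WT HDM and 5 in WT naive. Egr1 was not lower in the KO-labelled libraries (3494 reads in KO-labelled HDM against 1174 in WT HDM, and 3159 in KO-labelled naive against 1966 in WT naive). Tags at the 3′ end need not cover what was disrupted in Egr1, so this checks no label. Sex-linked RNA divided the libraries by treatment, with 1 read of the Y-linked gene Ddx3y in each HDM library and 2430 and 1925 in the naive ones. Xist had 2433 and 2195 reads in KO-labelled and WT HDM skin, against 40 and 10 in KO-labelled and WT naive skin. Salivary and lacrimal gland markers took 0.00159% and 0.00737% of reads in KO-labelled and WT HDM skin, against 0.820% and 7.02% in KO-labelled and WT naive skin. Keratinocyte keratins were abundant in every library, with Krt5 at 16874 reads or more. Sex-linked and gland RNA thus move with HDM in both genotypes. Their part in the results cannot be told apart from that of HDM and was not tested.

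RefSeq promoter windows (build GRCm38.p6, 250 bases before to 50 after the start) were at hand for 8 of the 10 genes, in 10 windows. They were searched on both strands for the core of the antioxidant response element (TGACNNNGC), for an AP-1 site (TGANTCA) and for an EGR site (GCGNGGGCG). Matches to the first 2 may overlap in principle, but none did in these windows. Of all 32851 windows in the table, 12.4% held the first motif, 7.81% the second and 5.55% the third. The first motif was found in Nfe2l2, Gclm, Srxn1 and in 1 of 3 Txnrd1 windows, the second, with 2 matches, in Srxn1, and the third in Gclm and Nqo1. The windows of Slc7a11 and Gpx2 are shown because these genes differed most with HDM, and held no match. Gclm and Nqo1 are shown because they differed most between the naive libraries among genes with reads in both; capitals mark the matches. The windows lie at chr3:50443564-50443863 (minus strand) for Slc7a11, chr12:76795505-76795804 (minus) for Gpx2, chr3:122245307-122245606 (plus) for Gclm and chr8:107403156-107403455 (minus) for Nqo1. Those of Slc7a11 and Gclm belong to starts inside the gene spans that RefSeq gives, at or within 1 base of the GENCODE gene starts at 50443614 and 122245557.
Slc7a11: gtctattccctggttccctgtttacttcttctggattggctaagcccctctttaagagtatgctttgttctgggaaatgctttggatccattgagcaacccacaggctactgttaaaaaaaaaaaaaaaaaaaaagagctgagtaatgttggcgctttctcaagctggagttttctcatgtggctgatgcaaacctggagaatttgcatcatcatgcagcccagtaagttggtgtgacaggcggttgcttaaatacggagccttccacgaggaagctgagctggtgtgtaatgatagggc
Gpx2: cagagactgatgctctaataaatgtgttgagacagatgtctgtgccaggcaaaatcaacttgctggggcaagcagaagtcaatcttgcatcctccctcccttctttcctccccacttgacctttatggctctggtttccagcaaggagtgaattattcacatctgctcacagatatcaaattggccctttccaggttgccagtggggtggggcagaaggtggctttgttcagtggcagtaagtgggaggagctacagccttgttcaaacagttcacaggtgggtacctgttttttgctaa
Gclm: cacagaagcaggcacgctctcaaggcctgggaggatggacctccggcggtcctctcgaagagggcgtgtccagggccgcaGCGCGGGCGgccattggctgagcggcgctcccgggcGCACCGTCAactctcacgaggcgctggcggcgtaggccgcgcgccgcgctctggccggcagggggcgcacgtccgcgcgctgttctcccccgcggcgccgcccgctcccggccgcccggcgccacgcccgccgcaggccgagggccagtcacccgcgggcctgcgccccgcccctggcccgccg
Nqo1: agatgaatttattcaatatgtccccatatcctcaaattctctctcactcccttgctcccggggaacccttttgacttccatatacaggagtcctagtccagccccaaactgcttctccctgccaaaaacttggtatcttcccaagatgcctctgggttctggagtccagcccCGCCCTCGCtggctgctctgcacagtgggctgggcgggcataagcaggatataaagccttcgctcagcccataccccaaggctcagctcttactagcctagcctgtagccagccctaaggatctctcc
In Gclm the capitals begin with the EGR match, 170 to 162 bases before the start, followed by the response element core at 134 to 126 bases before it, read on the opposite strand. In Nqo1 the EGR match lies 78 to 70 bases before the start. A match describes letters only and is no evidence of binding, and a window without one says nothing about the factors.

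**Figure D1:**
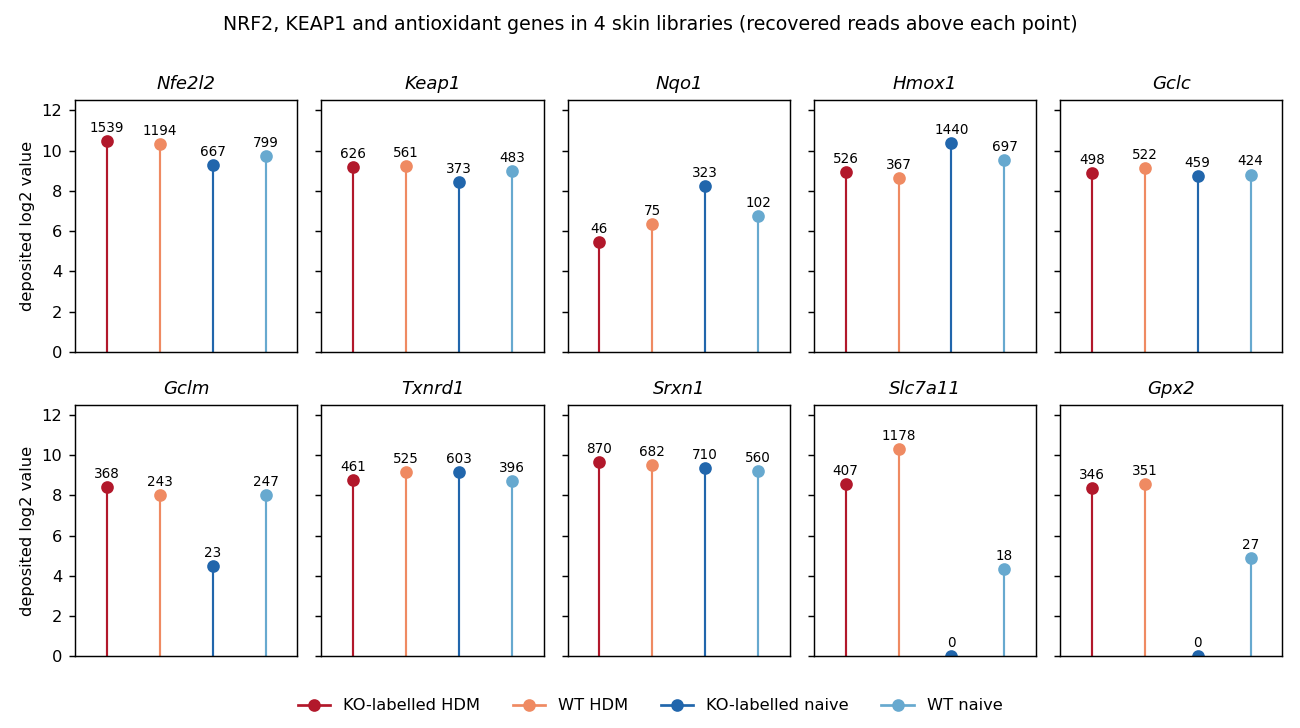
Deposited log2 value (y axis, log2 of scaled reads plus 1) of each of the 10 genes in the KO-labelled HDM, WT HDM, KO-labelled naive and WT naive libraries, from left to right, 1 library per group, with recovered reads printed above each point. Slc7a11 and Gpx2 stand at 346 reads or more in both HDM libraries and at 27 or fewer in both naive ones, while Gclc stays between 424 and 522 reads throughout.

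The clearest differences with HDM were in the cystine transporter and in an epithelial glutathione peroxidase. Slc7a11 (chromosome 3, 50364936 to 50499087, minus strand) encodes xCT, which brings cystine into the cell for glutathione synthesis. It had 407 reads in KO-labelled HDM and 1178 in WT HDM skin, against 0 in KO-labelled naive and 18 in WT naive skin. Both HDM libraries were thus high and both naive ones low. With HDM it was 66.8-fold higher in WT skin (95% counting interval 42.1 to 113) and, with the 0 taken as up to 3 reads, at least 136-fold higher in the KO-labelled pair. These intervals are exact Clopper-Pearson intervals of the 2 libraries' reads. Reads without molecular identifiers are not independent molecules, so intervals and limits cover counting error only and not the spread between animals, for which 1 library per group gives no measure. A bound against 3 reads takes the reads of the other library as exact. The exact 95% lower limit of the KO-labelled ratio was 110.2. GENCODE places the 3′ end of Slc7a11 at 49892526, and the annotation used in counting is not stated.

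Gpx2 (chromosome 12, 76792335 to 76795554, minus strand) encodes a selenium-dependent glutathione peroxidase of epithelia. Its reads numbered 346 in KO-labelled HDM and 351 in WT HDM skin, and 0 in KO-labelled naive and 27 in WT naive skin. The HDM libraries were again the high pair. The ratio of HDM to naive was 13.3 in WT skin (8.96 to 20.4) and at least 116 in KO-labelled skin, with an exact 95% lower limit of 93.6. The pseudogene Gpx2-ps1 had 38 and 27 reads in KO-labelled and WT HDM skin, against 0 and 4 in the naive libraries, so reads may be shared between the copies. The protein-coding gene Fntb covers the 3′ end of Gpx2 on the opposite strand, and whether strand was used in counting is not given in the sources used here; Fntb had 474, 456, 375 and 663 reads in KO-labelled HDM, WT HDM, KO-labelled naive and WT naive skin.

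The 2 subunits of glutamate-cysteine ligase, the first enzyme of glutathione synthesis, did not move alike. Gclc, the catalytic subunit (chromosome 9, 77754535 to 77794489, plus strand), had 498 and 522 reads in KO-labelled and WT HDM skin, against 459 and 424 in KO-labelled and WT naive skin. Its ratio of HDM to naive was 1.09 in KO-labelled skin (0.957 to 1.24) and 1.26 in WT skin (1.103 to 1.43). Gclm, the modifier subunit (chromosome 3, 122245487 to 122267215, plus strand), had 368 and 243 reads in KO-labelled and WT HDM skin, 23 in KO-labelled naive and 247 in WT naive skin. One library, KO-labelled naive, was low and the other 3 high. The HDM to naive ratio of Gclm was 16.0 in KO-labelled skin (10.53 to 25.6) and 1.004 in WT skin (0.838 to 1.204). A gene model annotated on the opposite strand, Gm17494, covers the 3′ end of Gclm. A processed pseudogene on the same strand, Gm6061, also overlaps the gene. GENCODE places the 3′ end of Gclm at 122270732, and the annotation used in counting is not stated.

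Txnrd1 and Srxn1, of the thioredoxin and peroxiredoxin branch, each varied by under 2-fold over the 4 libraries. Txnrd1 (chromosome 10, 82833951 to 82897724, plus strand) encodes the cytosolic thioredoxin reductase and had 461 and 525 reads in KO-labelled and WT HDM skin, against 603 and 396 in KO-labelled and WT naive skin. It was 1.30-fold lower with HDM in KO-labelled skin (1.15 to 1.48) and 1.35-fold higher in WT skin (1.19 to 1.55). Both differences are under 2-fold and their difference was not tested. Srxn1 (chromosome 2, 152105524 to 152111376, plus strand) encodes sulfiredoxin, which repairs overoxidized peroxiredoxins. Its reads were 870 and 682 in KO-labelled and WT HDM skin and 710 and 560 in KO-labelled and WT naive skin. The HDM to naive ratio was 1.23 in KO-labelled skin (1.11 to 1.36) and 1.24 in WT skin (1.11 to 1.39).

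Nqo1 and Hmox1 were lower with HDM by 2-fold or more in KO-labelled skin. Nqo1 (chromosome 8, 107388225 to 107403205, minus strand), the quinone reductase most often used as an NRF2 readout, had 46 and 75 reads in KO-labelled and WT HDM skin, against 323 and 102 in KO-labelled and WT naive skin. It was 7.00-fold lower with HDM in KO-labelled skin (5.13 to 9.75). In WT skin the ratio was 0.751 with an interval that includes 1 (0.549 to 1.02), so no difference was detectable at this depth. Hmox1 (chromosome 8, 75093618 to 75100593, plus strand) encodes haem oxygenase 1, which degrades haem and is abundant in macrophages. It had 526 and 367 reads in KO-labelled and WT HDM skin, against 1440 and 697 in KO-labelled and WT naive skin. It was 2.73-fold lower with HDM in KO-labelled skin (2.47 to 3.02) and 1.86-fold lower in WT skin (1.64 to 2.12). Both genes were highest in the library of KO-labelled naive skin. In whole tissue, fewer cells of a type and less RNA per cell cannot be told apart.

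The regulators differed modestly. Nfe2l2 (chromosome 2, 75675513 to 75704663, minus strand) had 1539 and 1194 reads in KO-labelled and WT HDM skin, against 667 and 799 in KO-labelled and WT naive skin. It was 2.31-fold higher with HDM in KO-labelled skin (2.11 to 2.54) and 1.53-fold higher in WT skin (1.39 to 1.67). Keap1 (chromosome 9, 21229730 to 21239332, minus strand) had 626 and 561 reads in KO-labelled and WT HDM skin, against 373 and 483 in the naive libraries. Its ratio was 1.68 in KO-labelled skin (1.48 to 1.92) and 1.19 in WT skin (1.05 to 1.34). An antisense gene model, Gm16754, covers the 3′ end of Keap1.

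**Figure D2:**
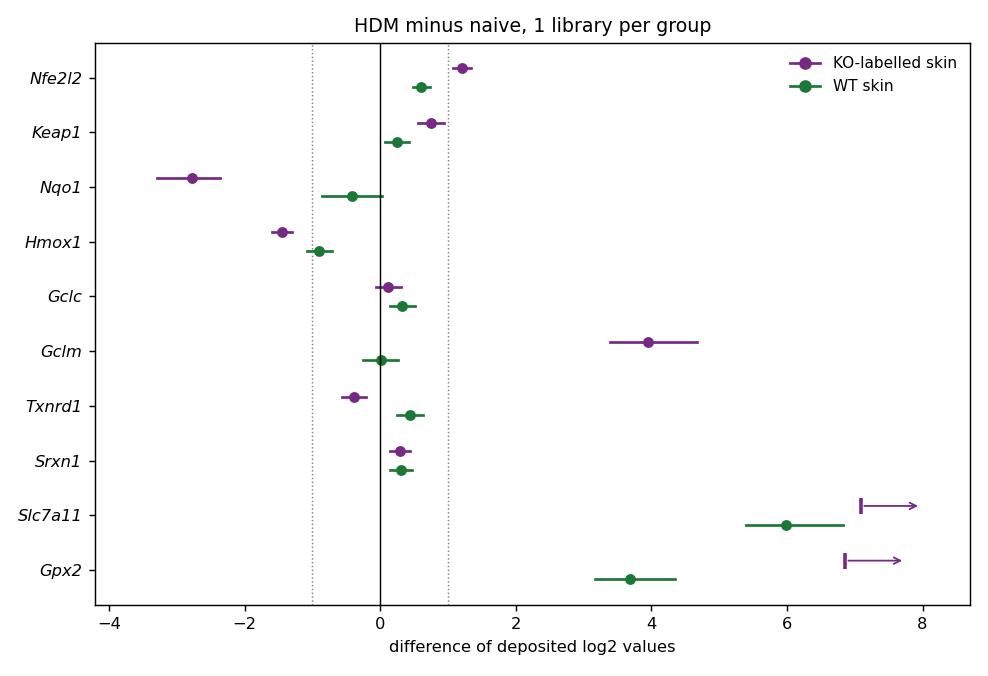
Difference of deposited log2 values, HDM minus naive, for each gene in KO-labelled skin (upper mark) and WT skin (lower mark), 1 library per group; bars are 95% counting intervals, arrows start at the bound against 3 reads where the naive library had 0, and dotted lines mark 2-fold. Slc7a11 and Gpx2 lie past 2-fold on the higher side in both genotypes, and Nqo1 and Hmox1 past it on the lower side in KO-labelled skin.

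HDM against naive skin asked what the allergen cream added to barrier disruption, though sex-linked and gland RNA moved with HDM too. In KO-labelled skin 4 of the 10 genes were higher by 2-fold or more (Nfe2l2, Gclm, Slc7a11 and Gpx2) and 2 lower (Nqo1 and Hmox1), where 21.7% of 11600 measured genes were higher and 18.2% lower. In WT skin 2 of the 10 were higher (Slc7a11 and Gpx2) and 0 lower, where 14.5% of measured genes were higher and 12.7% lower. Slc7a11 and Gpx2 were the 2 that were higher in both genotypes, and 0 were lower in both, beside 7.06% and 6.71% of measured genes. With 10 genes, each gene is 10% of the list, so these counts lie near the shares of all measured genes, within 2 genes of them. The median difference of the 10 genes was 0.52 on the log2 scale in KO-labelled and 0.32 in WT skin, against 0.06 and 0.03 over all measured genes. All 10 genes passed the expression filter, a mean log2 value above 5.11. Slc7a11 and Gpx2 passed it through the HDM libraries, so their count is no support. The medians of the 10 genes include both and are no support either. With WT naive in place of KO-labelled naive skin, which also changes the genotype, 2 genes were higher in KO-labelled HDM skin (Slc7a11 and Gpx2) and 1 lower (Nqo1).

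Marker RNA of several cell types moved with these differences. Summed reads of the 6 keratinocyte markers were 140931 and 169967 in KO-labelled and WT HDM skin, against 43601 and 62638 in KO-labelled and WT naive skin, with none at 0. Most of these reads were of Krt5 and Krt14, and the list was divided: with HDM, KO-labelled skin had 3 markers higher and 2 lower, and WT skin 4 higher and 1 lower. Krt15 was lower in both genotypes, with 2816 and 1200 reads in KO-labelled and WT HDM skin, against 9806 and 9623 in the naive libraries. The 10 hair follicle markers summed to 61754 and 22462 reads in KO-labelled and WT HDM skin, against 737 and 409 in the naive libraries, and 5 of them (Krt31, Krt71, Krt85, Krt27 and Krt35) were at 0 in KO-labelled naive skin. The 6 neutrophil markers in the tables had 82836 and 185612 reads in KO-labelled and WT HDM skin, against 4 and 632 in the naive libraries, most of them of S100a8 and S100a9, which inflamed keratinocytes also express. All 10 hair follicle markers and the 4 measured neutrophil markers were higher with HDM in both genotypes, beside 7.06% of measured genes. Krt31, Krt71, Krt27, Krt35 and Cxcr2 lay below the expression filter in both naive libraries. Krt85, Krt33a, S100a8, S100a9 and Il1b lay below it in 1 naive library. These markers passed the filter through libraries where they were high, so this count is a description and no support. The part of these 3 lists in the Slc7a11 and Gpx2 differences was not tested. Slc7a11 is also known from pigment cells. The 8 melanocyte markers, mostly Pmel and Dct, summed to 5514 and 1931 reads in KO-labelled and WT HDM skin, against 4346 and 4150 in KO-labelled and WT naive skin, and their part in the Slc7a11 values was not tested. The 11 macrophage and monocyte markers summed to 7665 and 8659 reads in the HDM libraries, against 10658 and 4354 in KO-labelled and WT naive skin. Hmox1 and this sum were both highest in KO-labelled naive skin, but the list was divided. Csf1r, Mrc1, Lyz2, Cd14 and C1qc were highest there, Cd68, Adgre1, Itgam, Cd163 and C1qb in WT HDM and C1qa in KO-labelled HDM skin. With HDM, KO-labelled skin had 0 of the 11 markers higher and 3 lower, and WT skin 6 higher and 0 lower. In WT skin the summed markers were thus higher with HDM and Hmox1 lower. The sum of adipocyte markers, like Nqo1, was highest in KO-labelled naive skin, with 38880 reads there and 4857 to 11140 in the other libraries. Fabp4 gave 27756 of these 38880 reads. Adipoq, Lep, Plin4, Cidec and Retn were also highest there. Plin1 had 0 reads there, and 98, 125 and 70 in KO-labelled HDM, WT HDM and WT naive skin. The sum of skeletal muscle markers was also highest in KO-labelled naive skin, with 47654 reads there and 25071 to 37072 in the other libraries. So was the sum of sebaceous gland markers, with 95402 reads there, of which Scd1 gave 83910, and 8777 to 79522 in the other libraries. The part of these markers in the Hmox1 and Nqo1 differences was not tested.

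KO-labelled against WT under HDM asked how EGR1 bears on the response, and here 9 of the 10 genes differed by under 2-fold. Slc7a11 alone passed 2-fold, 3.32-fold lower in KO-labelled HDM skin (2.97 to 3.73), from 407 against 1178 reads. So 1 of 10 genes was lower and 0 higher, where 4.66% and 3.06% of measured genes were. Nqo1, with 46 against 75 reads, was 1.87-fold lower (1.28 to 2.76), short of the size rule. Gclm was 1.32-fold higher (1.12 to 1.56) and Hmox1 1.25-fold higher (1.09 to 1.43), while Txnrd1 was 1.31-fold lower (1.15 to 1.48) and Gclc 1.203-fold lower (1.06 to 1.36). Nfe2l2 and Srxn1 had ratios of 1.12 (1.04 to 1.21) and 1.11 (1.004 to 1.23), and Gpx2 of 0.859 (0.738 to 0.999). The Keap1 ratio was 0.972, with an interval that includes 1 (0.866 to 1.09), and its sign turned under 1 scaling. Markers of several tissues also differed between these 2 libraries. Cartilage markers had 5 of 6 measured genes lower in KO-labelled HDM skin, with a median of -5.06 on the log2 scale, and Cytl1 had 26 reads there against 11607 in WT HDM skin. All 5 measured sebaceous gland markers and 7 of 10 hair follicle markers were higher in KO-labelled HDM skin. Of 6 measured adipocyte markers 4 were higher there and 0 lower, while Nqo1 was lower. Of 4 measured neutrophil markers 2 were lower, S100a8 and S100a9, and of 6 keratinocyte markers 2 were lower and 1 higher. The part of these differences in the Slc7a11 and Nqo1 values was not tested.

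The genotype difference without HDM was read from the 2 naive libraries. Nqo1 was 2.81-fold higher in KO-labelled naive skin (2.24 to 3.54), with 323 against 102 reads. Gclm was 12.1-fold lower (7.89 to 19.5), with 23 against 247 reads. Slc7a11 and Gpx2, at 0 against 18 and 27 reads, were at least 6.77-fold and 10.2-fold lower with the 0 taken as up to 3 reads, and the exact 95% lower limits were 4.96 and 7.71. That makes 1 gene higher and 3 lower by 2-fold or more, where 13.6% of measured genes were higher and 17.1% lower. Hmox1 was 1.83-fold higher (1.67 to 2.01), Txnrd1 1.35-fold higher (1.19 to 1.54), Keap1 1.46-fold lower (1.27 to 1.68) and Nfe2l2 1.35-fold lower (1.22 to 1.5). Srxn1 stood at 1.12 (1.004 to 1.26) and Gclc at 0.959 (0.839 to 1.098). This comparison shares its libraries with the HDM comparisons above, so a low or high value in a naive library enters both. Tissue markers also differed. All 6 measured salivary and lacrimal gland markers and all 4 neutrophil markers were lower in KO-labelled naive skin. Of adipocyte markers 4 of 6 were higher and 0 lower, and of macrophage and monocyte markers 5 of 11 higher and 0 lower. Of hair follicle markers 2 of 10 were higher and 5 lower. The 5 lower ones (Krt31, Krt71, Krt85, Krt27 and Krt35) had 0 reads in KO-labelled naive and only 4 to 37 in WT naive skin. Among all genes with 15 to 19 and 30 to 49 reads in WT naive skin, as Krt27 and Krt85 had, 64.2% and 35.7% were at 0 in KO-labelled naive skin. The part of these differences in the values of the 10 genes was not tested.

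**Figure D3:**
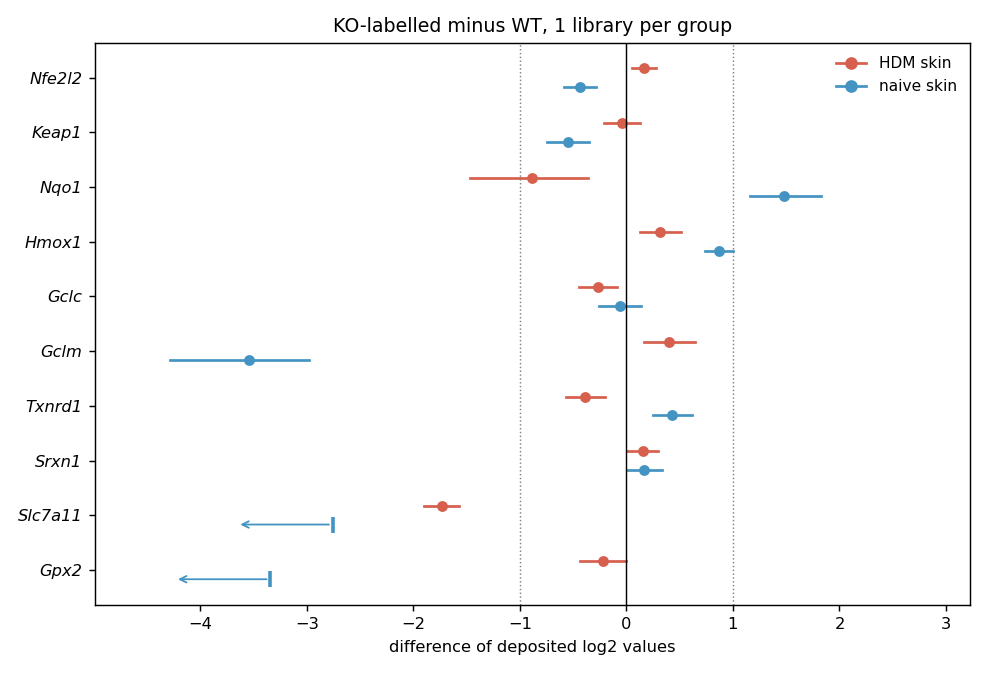
Difference of deposited log2 values, KO-labelled minus WT, for each gene in HDM skin (upper mark) and naive skin (lower mark), 1 library per group; bars are 95% counting intervals, arrows start at the bound against 3 reads where KO-labelled naive skin had 0, and dotted lines mark 2-fold. Under HDM Slc7a11 alone lies past 2-fold, while in naive skin Nqo1, Gclm, Slc7a11 and Gpx2 do.

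The low values of KO-labelled naive skin belong to a library with many genes at 0. Among genes with 15 to 19 reads in WT naive skin, as Slc7a11 had, 64.2% were at 0 in KO-labelled naive skin, against 13.1% in KO-labelled HDM and 12.3% in WT HDM skin. Among those with 20 to 29 reads, as for Gpx2, the shares were 48.1%, 7.29% and 5.57%. At the level of Gclm, 200 to 299 reads, 4.01% of 1545 genes were 8-fold or more lower in KO-labelled naive skin, against 1.36% in KO-labelled HDM and 0.906% in WT HDM skin. The part of this in the low values of Slc7a11, Gpx2 and Gclm was not tested. Gclm had the widest range of the genes with 20 or more reads in every library. The 5 measured genes most like it over the 4 libraries were Nit1, Ifi44, Rassf10, Mknk1 and Tnfaip8l1, at a root mean square distance of 0.139 to 0.179 on the log2 scale. Each of them had 5 to 31 reads in KO-labelled naive skin and 51 or more elsewhere. The nearest of the other 9 genes, Nfe2l2, came 1898th of 11599.

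**Figure D4:**
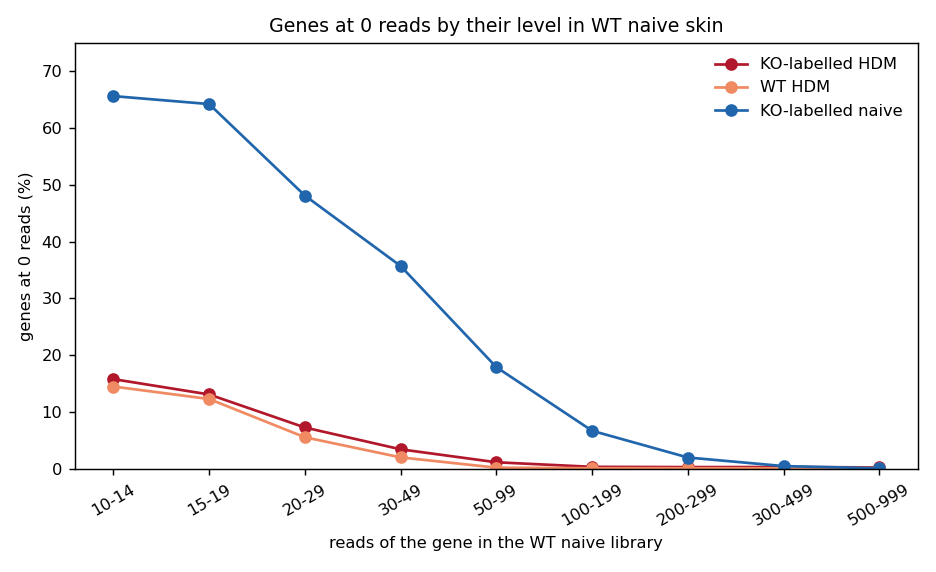
Share of genes at 0 reads (y axis, percent) in the KO-labelled HDM, WT HDM and KO-labelled naive libraries, by the gene's reads in WT naive skin (x axis, 9 classes). At 15 to 19 reads the share is 64.2% in KO-labelled naive skin, against 13.1% and 12.3% in KO-labelled and WT HDM skin.

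Around the 10 genes, 100 further genes of NRF2 control, glutathione, thioredoxin, NADPH supply, detoxification, haem and iron, superoxide and hydrogen peroxide removal, and keratinocyte targets were listed, of which 83 were measured. With HDM in KO-labelled skin 20 of the 83 were higher by 2-fold or more and 15 lower (24.1% and 18.1%), and in WT skin 15 were higher and 11 lower (18.1% and 13.3%). These shares are near those of all measured genes given above. Under HDM, 4 were higher and 6 lower in KO-labelled than in WT skin (4.82% and 7.23%), beside 3.06% and 4.66% of all measured genes. In naive skin 10 were higher and 11 lower (12.0% and 13.3%), beside 13.6% and 17.1%. In both genotypes 11 of the 83 were higher with HDM and 5 lower, where 7.06% and 6.71% of all measured genes were. The 11 include Slpi, Sprr2d, Epgn and Nfe2l3, each below the expression filter of 5.11 in at least 1 naive library. These passed it through libraries where they were high, so the counts of genes higher with HDM are no support. Slc40a1, also among the 11, lay just under the filter in KO-labelled naive skin (5.08) and above it in WT naive skin (7.14).

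Of the 4 genes for superoxide dismutases and catalase, 3 were lower with HDM in KO-labelled skin and 2 in WT skin, and 0 and 1 higher, where 18.2% and 12.7% of measured genes were lower and 21.7% and 14.5% higher. Cat, which breaks down hydrogen peroxide, had 565 and 237 reads in KO-labelled and WT HDM skin, against 1757 and 1214 in the naive libraries. That was 3.10-fold lower in KO-labelled (2.82 to 3.41) and 5.02-fold lower in WT skin (4.36 to 5.79). Sod1, the cytosolic dismutase, was 2.29-fold lower in KO-labelled (2.18 to 2.40) and 2.37-fold lower in WT skin (2.26 to 2.49). Sod3, the secreted form, was 3.88-fold lower in KO-labelled skin (3.23 to 4.68) and 2.47-fold higher in WT skin (2.10 to 2.90). Glutathione peroxidases other than Gpx2 had a median of -0.87 in KO-labelled and -0.85 in WT skin. In each genotype 2 of 5 were lower and 1 higher, beside the same shares of measured genes. Gpx4, the lipid peroxide form, was lower in KO-labelled skin (896 against 2409 reads) and Gpx1, the widespread cytosolic form, was higher in WT skin (5333 against 1792 reads). Gpx3, the plasma form, was 2.35-fold lower in KO-labelled (2.24 to 2.47) and 2.82-fold lower in WT skin (2.66 to 2.99), so Gpx2 and Gpx3 differed in opposite directions. Sebaceous gland markers summed to 34346 and 8777 reads in KO-labelled and WT HDM skin, against 95402 and 79522 in the naive libraries. Most of these were of Scd1 (19633 and 5140 reads in KO-labelled and WT HDM skin, against 83910 and 67821). With HDM, KO-labelled skin had 2 of the 5 measured markers higher and 2 lower, with a median of 0.70, and WT skin had 4 lower and 0 higher. Their part in the Cat difference was not tested.

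Several genes of the other branches were higher with HDM. Gsta4, a glutathione transferase that conjugates lipid peroxidation products, was 3.78-fold higher with HDM in KO-labelled (3.37 to 4.24) and 11.4-fold higher in WT skin (9.99 to 12.95). In KO-labelled skin 3 of the 15 measured transferases passed 2-fold on the higher side and 4 on the lower, and in WT skin 2 and 3. Their median was -0.20 on the log2 scale in KO-labelled and -0.61 in WT skin. Gstk1 and Gsto1 were the other higher ones in KO-labelled skin, by 7.26-fold (4.76 to 11.5) and 4.42-fold (3.99 to 4.90). In WT skin Gstk1 was 2.04-fold lower (1.67 to 2.51) and Gsto1 1.37-fold higher (1.28 to 1.48). Gstk1 had 25 reads in KO-labelled naive skin and 144 or more elsewhere. Mgst1 was 2.61-fold lower with HDM in KO-labelled (2.49 to 2.74) and 2.95-fold lower in WT skin (2.74 to 3.18). The carbonyl reductase gene Cbr3 was 4.76-fold higher in KO-labelled (3.86 to 5.90) and 4.46-fold higher in WT skin (3.58 to 5.6). It was 1 of 2 higher genes among 10 measured detoxification genes in KO-labelled skin and the 1 higher gene in WT skin, with 0 and 1 lower. Haem and iron genes had 3 of 10 higher and 1 lower in KO-labelled skin, and 4 higher and 0 lower in WT skin. Beside these, the transferase and the detoxification counts stand 21.7% of measured genes higher and 18.2% lower in KO-labelled skin. In WT skin the shares were 14.5% and 12.7%. The lists are short, so these counts are a description only. Fth1 was 3.28-fold lower in KO-labelled skin (3.13 to 3.45) and had a ratio of 1.05 in WT skin (0.998 to 1.09). Hmox2, the constitutive haem oxygenase, was 2.18-fold higher in KO-labelled (1.89 to 2.52) and 3.05-fold higher in WT skin (2.62 to 3.57), against the direction of Hmox1. Hp, which encodes the haemoglobin-binding plasma protein haptoglobin, was 4.71-fold higher in KO-labelled (4.405 to 5.03) and 2.79-fold higher in WT skin (2.59 to 3.00). The iron exporter gene Slc40a1 was 13.4-fold higher in KO-labelled skin (9.51 to 19.5), from 468 against 35 reads, and 2.31-fold higher in WT skin (1.88 to 2.85), from 301 against 133 reads. Its lowest value lies in the KO-labelled naive library, just under the expression filter.

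Thioredoxin and peroxiredoxin genes had 1 of 11 higher and 2 lower in KO-labelled skin and 0 higher and 1 lower in WT skin. Txnip, the thioredoxin inhibitor, had 1712 and 1932 reads in KO-labelled and WT HDM skin, against 7693 and 1288 in KO-labelled and WT naive skin. It was 4.48-fold lower with HDM in KO-labelled skin (4.25 to 4.72) and 1.53-fold higher in WT skin (1.43 to 1.64), and the difference between these was not tested. Glutathione synthesis and recycling genes had 2 of 7 higher and 2 lower in KO-labelled skin, and 1 higher and 0 lower in WT skin. The glutathione reductase gene Gsr, like Nqo1, was high in KO-labelled naive skin alone, with 962 reads there and 242, 246 and 212 in KO-labelled HDM, WT HDM and WT naive skin. Glutathione synthetase (Gss), like Gclm, was low there, with 9 reads against 112, 97 and 73. NADPH supply had 1 of 6 higher (Pgd) and 0 lower in KO-labelled skin, and 0 higher and 1 lower (Me1) in WT skin.

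Of 12 NRF2 partners, repressors and regulators, KO-labelled skin had 4 higher and 1 lower, and WT skin 2 higher and 1 lower. Beside these stand 21.7% of measured genes higher and 18.2% lower in KO-labelled skin, and 14.5% and 12.7% in WT skin. The NRF2 relative Nfe2l3 was 2.94-fold higher in KO-labelled (2.23 to 3.90) and 29.9-fold higher in WT skin (15.5 to 66.2), from 208 against 71 and 264 against 9 reads. Dpp3, whose product binds KEAP1 in human cells, was 2.53-fold higher in KO-labelled (2.24 to 2.87) and 3.999-fold higher in WT skin (3.57 to 4.48). The small MAF genes Mafg and Mafk were 4.28-fold (3.63 to 5.06) and 3.20-fold higher (2.59 to 3.99) with HDM in KO-labelled skin. In WT skin Mafg had a ratio of 0.995 (0.875 to 1.13) and Mafk was 1.46-fold lower (1.24 to 1.72). Maff, also a small MAF gene, went the other way in KO-labelled skin, 2.13-fold lower with HDM (1.60 to 2.87), from 71 against 152 reads. In WT skin Maff was 1.56-fold higher (1.08 to 2.27), from 78 against 51 reads, so it was highest in KO-labelled naive skin. Mafg had 772 and 471 reads in KO-labelled and WT HDM skin, against 181 and 483 in KO-labelled and WT naive skin, and Mafk 361 and 252, against 113 and 376, so both were lowest in KO-labelled naive skin. Slpi, Sprr2d and Epgn, described as NRF2 targets in mouse keratinocytes, had higher values with HDM in both genotypes. Slpi and Sprr2d lay below the expression filter in both naive libraries and Epgn in KO-labelled naive skin, so they passed it through libraries where they were high, and their count and medians are a description and no support. Slpi, a protease inhibitor, was higher at least 72.9-fold in KO-labelled and 21.6-fold in WT skin (14.8 to 32.8), and Epgn, an EGF receptor ligand, at least 404-fold and 7.55-fold higher (6.09 to 9.44). None of them had a read in KO-labelled naive skin. The median of these 3 was 10.15 on the log2 scale in KO-labelled skin, or 8.66 with genes at 0 set to 3 reads, and 4.38 in WT skin.

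**Figure D5:**
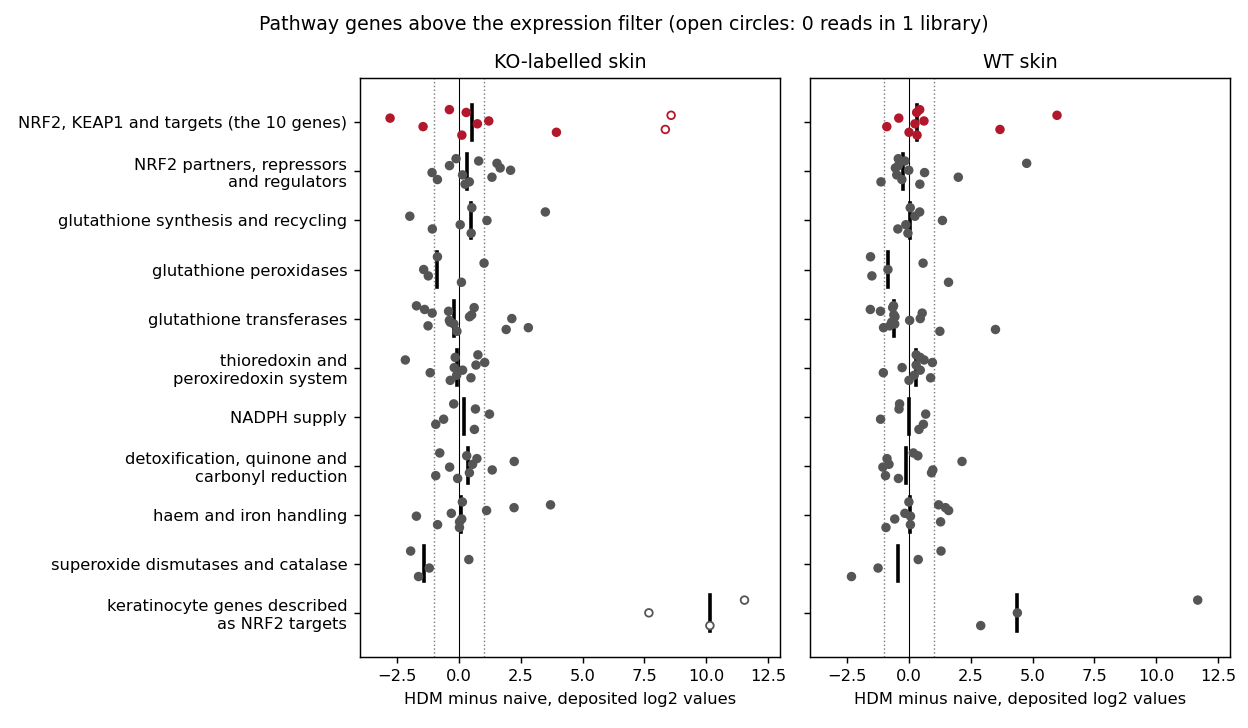
Difference of deposited log2 values, HDM minus naive (x axis), of every measured gene of each list in KO-labelled skin (left) and WT skin (right), 1 library per group; each circle is a gene, black bars are list medians and dotted lines mark 2-fold. The superoxide and catalase list has a median of -1.41 in KO-labelled and -0.43 in WT skin, and the 3 keratinocyte genes lie past 2-fold on the higher side in both.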

How the data were processed

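Gene expression was measured in 4 skin libraries of 1 per group, made with the QuantSeq 3′ kit per the labels' protocols. Each table the authors deposited holds log2 values on 23282 lines. The submitters' processing notes name Bowtie2, bedtools and mm10 without role or version; these sources do not state the normalization or annotation. Unlogged values (2 to the power of the value, minus 1) lay near whole multiples of 1.056 (WT naive), 0.936 (KO-labelled naive), 1.078 (WT HDM) and 0.939 (KO-labelled HDM), so reads were recovered by dividing by these steps. Of genes up to 200 reads, 95.7% to 99.1% came out whole within 0.1 read; higher numbers are approximate. Symbols on more than 1 line (35 on 79 lines) were left out. A gene was measured when its mean log2 value exceeded the median of all, 5.11 (11600 genes). The size rule was a log2 difference of 1 (2-fold) of the deposited values; no test across animals was run and no p-value is given. Ratios use reads times steps, with exact 95% intervals; a 0 counts as up to 3 reads per library. Python 3.11.15, numpy 2.4.6, pandas 2.3.3 and scipy 1.17.1 were used, and the read recovery was tested on simulated data. Named genes were all 10 members, up to 3 genes per list with the largest differences in a comparison, and the 5 genes nearest to Gclm. Fntb, Gpx2-ps1, Maff and the single marker genes were added after their values were seen. Members and lists were chosen with earlier results of these data known. Alternatives changed scaling, pseudocount, size rule and filter. Coordinates are RefSeq's for GRCm38.p6, the assembly that mm10 names.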

Additional observations from a re-analysis of the deposited data

Results flagged for a closer look

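Some genes differed one way between KO-labelled and WT HDM skin and the other way between KO-labelled and WT naive skin, with counting intervals that left out a ratio of 1 each time. With 1 library per group the difference between the contrasts was not tested. Nqo1 was 1.87-fold lower under HDM and 2.81-fold higher in naive skin, a difference of log2 differences (HDM minus naive in KO-labelled skin, less that in WT skin) of -2.37. Gclm was 1.32-fold higher under HDM and 12.1-fold lower in naive skin, which gives 3.94, and its low value lies in the library with many genes at 0. Nfe2l2 was 1.12-fold higher under HDM and 1.35-fold lower in naive skin, which gives 0.60. Txnrd1 was 1.31-fold lower under HDM and 1.35-fold higher in naive skin, which gives -0.82, and it was also the 1 gene with opposite HDM differences in both genotypes.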

How the results depend on the processing

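Scaling by library size, a trimmed mean scaling, a median of ratios scaling and pseudocounts of 5 and 0.5 left the count of the 10 genes past 2-fold at 6 (HDM in KO-labelled skin), 2 (HDM in WT skin), 1 (KO-labelled against WT under HDM) and 4 (the same in naive skin). At 1.5-fold the counts were 4 for HDM in WT skin (3 higher, 1 lower) and 2 for genotype under HDM. For the 83 pathway genes they were 44 for HDM in WT skin, 22 for genotype under HDM and 37 for genotype in naive skin, against 26, 10 and 21 at 2-fold. Without genes under 50 reads in both libraries, 2 genes passed between naive libraries. With WT naive in place of KO-labelled naive skin, an alternative chosen after seeing the data, 3 passed in KO-labelled HDM skin in place of 6. Of 200 single differences recomputed, 192 stayed within their counting interval and 8 moved, all of Slc7a11 and Gpx2 against their 0 in KO-labelled naive skin. Signs turned for Gclm with HDM in WT skin (0.006, and -0.02 with the trimmed mean, -0.01 with the median of ratios) and, with scaling by library size, for Gclc between naive libraries (-0.06 and 0.06) and Keap1 between HDM libraries (-0.04 and 0.06). No library could be left out of a group of 1. No paired analysis was possible because each group holds 1 library. The spread between animals is unknown for every value.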
